A study of Mus musculus with 22 samples.

Results

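The comparison described here is that of cardiac fibroblasts kept in culture to day 14 with a control virus against the same kind of cells at day 0. It rests on 4 of the 22 arrays of the series: both arrays labelled D0CF and both labelled D14lacZ, chosen by these labels and compared across all genes. The fibroblasts (CF) came from mice of strain CD1 with the genotype aMHC-GFP, in which green fluorescent protein reports activity of the cardiac alpha myosin heavy chain promoter, and every group of the series carries that reporter. Day 0 cells had received no virus, and day 14 cells were transduced with lacZ, which encodes a bacterial enzyme and serves as the control for MGT, a polycistronic retrovirus for the transcription factors Mef2c, Gata4 and Tbx5. The series was made to accompany single-cell RNA sequencing of fibroblasts reprogrammed with MGT to induced cardiomyocytes, and follows lacZ and MGT cultures at days 3, 5, 7, 10 and 14. Day 3 lacZ arrays divide the interval into an early and a later step, and the other lacZ groups give the courses of the lists. Virus and time in culture cannot be told apart between day 0 and day 14, since the cells without virus were sampled only at the start. The labels give no age, no sorting step and no statement that the 2 arrays of a group came from separate cultures. P-values thus reflect no more than how the arrays of the series vary within groups, possibly from technical sources alone.

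Cardiac fibroblasts make and remodel the collagenous matrix of the heart, and after injury or on stiff plastic they can turn into contractile myofibroblasts. Plated cells can pass through a phase of serum and wound-like signalling, with immediate early transcription factors and chemokines. Cultured cells can also slow down or leave the cell cycle, which inhibitors of cyclin-dependent kinases restrain. The part of such phases in the changes described below was not tested. Preparations of heart fibroblasts can also hold macrophages, endothelial cells, pericytes, mesothelial cells and remnants of cardiomyocytes, so the markers of those cells belong to any description of such a culture.

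RNA was hybridised in 1 colour (Cy3) to Agilent mouse arrays with 59305 spots each, and no spot was saturated. A level below is the log2 of the processed signal minus the array's own 75th percentile, so that 0 marks a spot as bright as that percentile. A difference is the day 14 mean minus the day 0 mean on this log2 scale, where a difference of 1 corresponds to a factor of 2, and a gene is called when its adjusted p from limma is under 0.05. All 4 arrays lay on 1 slide, while the day 3 arrays and the day 14 MGT arrays lay on others, so slide and group cannot be told apart in the comparisons with those. The second day 14 lacZ array stood apart in quality: its 75th percentile was 726 units against 1271 to 2092 on the other 21 arrays, 48.4% of its spots were well above background against 50.1% to 71.0%, and its replicated probes varied by a median of 5.67% against 2.02% to 2.82%. The 2 day 14 lacZ arrays differed from each other by a median of 0.27 log2 units per gene, the day 0 pair by 0.10, and the other pairs by 0.060 to 0.19. Results that move by more than 1.5 times without that array are given with their value.

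Markers of the labelled cell type were present on all 4 arrays. Of the 28 genes of the fibroblast identity list, 27 were well above background on each day 0 array and 27 on each day 14 array, and their summed linear level, in units of the array's 75th percentile, went from 758 and 772 at day 0 to 1085 and 1200.4 at day 14. The gene at background on all 4 arrays was Scara5, a ferritin receptor. Decorin (Dcn), a collagen-binding proteoglycan, read 7.63 and 7.65 at day 0 and 7.76 and 7.94 at day 14, and vimentin (Vim), the mesenchymal intermediate filament, read 7.78 and 7.71 at day 0 and 7.61 and 8.01 at day 14, and neither passed the test (adjusted p = 0.127 and 0.572). Both were bright on each array.

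Over all 18056 genes tested, 12409 were called (68.7%): 6349 were higher at day 14 (35.2%) and 6060 were lower (33.6%). Of these, 3146 were higher and 2511 lower by at least 1 log2 unit (17.4% and 13.9% of the genes tested), and 1247 and 719 by at least 2. The median difference over all genes was 0.046 and the median size 0.66. The 2 arrays of one group both lay above those of the other for 78.5% of genes, so a lack of overlap between the groups is the common case in this comparison, and each count below is to be read against these shares. A probe was kept when it was above background on both arrays of any of the 11 groups, so a gene dim at one time passed through another group, and counts over the gene lists below are descriptions. With the 4 arrays fitted alone, 8381 genes were called, with array weights 9467, and 12409 with the spread shared over all 22 arrays. Each SE and p-value below uses that shared spread, while the day 14 lacZ pair differed the most of all pairs, by a median of 0.27. Under another background correction (normexp) the median over all genes moved to 0.21 and the share of higher genes among the calls from 51.2% to 59.4%.

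Genes of macrophages and of the matrix and the Cdkn2a locus were among the 12 largest rises of genes above background on all 4 arrays. Cx3cr1, the fractalkine receptor of tissue macrophages (probe at chr9:119957811-119957870, mm9), read -4.33 and -4.34 at day 0 and 5.18 and 5.40 at day 14, a difference of 9.63 (SE 0.35, adjusted p = 4.95e-11). Fcrls, an Fc receptor-like gene of microglia and macrophages, read -2.75 and -2.70 at day 0 and 4.04 and 4.49 at day 14, a difference of 6.99 (SE 0.59, adjusted p = 1.93e-07). Cbr2, a carbonyl reductase, rose by 7.82 and F13a1, the A subunit of clotting factor XIII that macrophages also make, by 7.13, the latter with the widest error of this group (SE 1.10). In these 4 genes both day 14 arrays lay above both day 0 arrays, which the choice of the genes required. Ccn5, a matricellular protein that restrains growth of muscle cells and fibroblasts (probe at chr2:163658717-163658776, mm9), read -2.76 and -2.83 at day 0 and 6.05 and 6.15 at day 14, a difference of 8.90 (SE 0.11, adjusted p = 9.16e-15). Itgbl1, a secreted integrin beta-like protein, read -2.30 and -2.26 at day 0 and 5.28 and 5.52 at day 14, a difference of 7.68 (SE 0.11, adjusted p = 2.59e-14). Spp1, osteopontin, a phosphoprotein secreted by macrophages and mesenchymal cells, read -1.87 and -1.99 at day 0 and 5.16 and 5.57 at day 14, a difference of 7.29 (SE 0.48, adjusted p = 1.56e-08). The day 14 pair was tight for these 3 relative to the change. Cdkn2a, the locus of the cell cycle inhibitors p16Ink4a and p19Arf (probe at chr4:88920405-88920464, mm9), read -2.13 and -2.19 at day 0 and 5.21 and 5.02 at day 14, a difference of 7.28 (SE 0.13, adjusted p = 1.19e-13). A second probe for the locus differed by 8.68 in the same direction but was above background on only 2 of the 4 arrays. Which transcripts of the locus changed was not tested. The other 4 among the 12 largest rises were Scel by 7.59, Adamtsl2 by 7.02, Mamdc2 by 6.84 and Hsd11b1 by 6.79, which encode sciellin of cornified envelopes, a microfibril-associated ADAMTS-like protein, a MAM domain protein and the enzyme that regenerates active glucocorticoid.

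Among genes above background on all 4 arrays, the largest falls were led by neutrophil-attracting chemokines. Cxcl5 (probe at chr5:91190490-91190549, mm9) read 7.60 and 7.61 at day 0 and -1.45 and -2.01 at day 14, a difference of -9.33 (SE 0.24, adjusted p = 2.78e-12), a factor of 646. Cxcl1 read 7.21 and 7.22 at day 0 and -0.15 and -1.09 at day 14 and fell by 7.84 (SE 0.24, adjusted p = 1.04e-11), and Cxcl2 read 3.14 and 3.06 at day 0 and -3.04 and -3.73 at day 14 and fell by 6.48. Tslp, thymic stromal lymphopoietin, an alarm cytokine of epithelial and stromal cells, read 5.57 and 5.64 at day 0 and -3.28 and -2.71 at day 14, a difference of -8.60 (SE 0.16, adjusted p = 2.16e-13). These 4 lay above the 75th percentile on both day 0 arrays and below it on both day 14 arrays. Il1b, interleukin 1 beta, fell by 6.30, Il13ra2, the decoy receptor for interleukin 13, by 5.19, Lcn2, the siderophore-binding lipocalin, by 5.13, and Fosl1, the AP-1 subunit Fra-1, by 5.43. Penk, proenkephalin, fell by 5.01. The remaining 3 of the 12 largest falls were sarcomere genes of the heart, Myh6, Actc1 and Myl3, with falls of 5.49, 5.27 and 5.09.

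**Figure D1:**
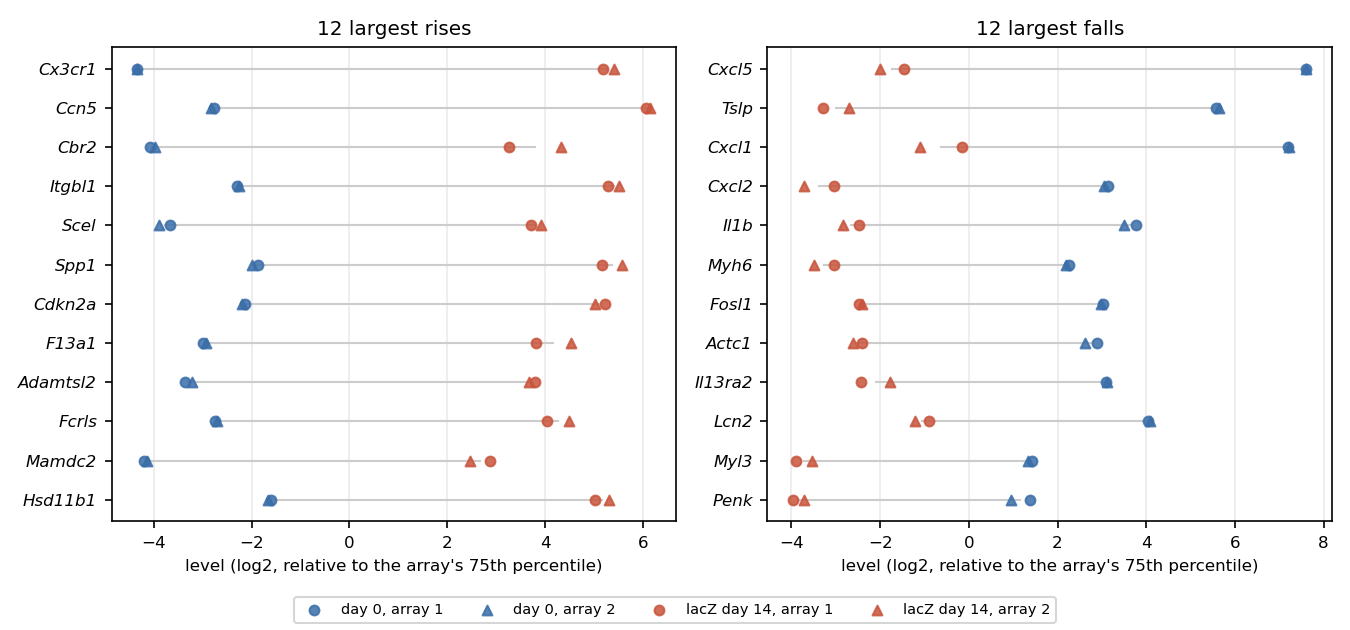
Levels on each of the 4 arrays (log2, relative to the array's 75th percentile) of the 12 largest rises and the 12 largest falls from day 0 (blue) to lacZ day 14 (red), with circles and triangles for the first and the second array of a group and grey lines joining the group means. The rises run from 6.79 (Hsd11b1) to 9.63 (Cx3cr1), the falls from -5.01 (Penk) to -9.33 (Cxcl5), and in each gene the pairs do not overlap, which the choice of these genes required.

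Genes that were not well above background on one side give only a bound, computed against the dimmest signal still called above background on that side. There were 163 genes at background on both day 0 arrays and measured on both day 14 arrays, and 587 of the opposite kind. Scg2, the granin secretogranin II of secretory granules, read -5.48 and -5.95 at day 0 and 5.29 and 5.35 at day 14 and was at least 1837-fold higher at day 14 (adjusted p = 9.16e-15). Nxpe5 was at least 255-fold higher, Ambp, the precursor of alpha-1-microglobulin and bikunin, at least 96.9-fold, Mrap2, an accessory protein of melanocortin receptors, at least 70.3-fold, and Gpr34, a receptor of microglia and macrophages, at least 57.1-fold. On the other side, Sprr2h, a small proline-rich protein of stressed epithelia, was at least 211-fold lower at day 14, Serpinb2, plasminogen activator inhibitor 2, at least 192-fold, and S100a9, a calgranulin of neutrophils and monocytes, at least 116-fold. Csf2, which encodes the growth factor GM-CSF, was at least 46.9-fold lower and Gsta1, a glutathione S-transferase, at least 48.7-fold.

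Macrophage markers rose in the day 14 culture. Of 22 genes, 21 were higher and 1 lower, with a median difference of 2.26 against 0.046 over all genes. Mrc1, the mannose receptor, read -0.63 and -0.80 at day 0 and 4.59 and 5.09 at day 14, and the complement subunit C1qc, which tissue macrophages make, read -0.13 and -0.086 at day 0 and 5.39 and 5.82 at day 14. Trem2, a lipid-sensing receptor, read 0.73 and 0.59 at day 0 and 5.03 and 5.51 at day 14, and Csf1r, the receptor that macrophages need to survive, read 3.57 and 3.44 at day 0 and 6.06 and 6.61 at day 14. The differences of these 4 genes were 5.56, 5.71, 4.61 and 2.83. The lineage markers Adgre1 (F4/80) and Ptprc (CD45) were above background on all 4 arrays and rose by 1.29 and 1.61. The call for Cd68, a lysosomal marker that rose by 1.40, was lost without the second day 14 array (adjusted p = 0.182) and without either day 0 array. The gene that fell was Cd74, the invariant chain of MHC class II, by 1.01.

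The summed macrophage level was 93.5 and 104 on the day 0 arrays and 523 and 726 on the day 14 arrays, with 21 and 21 to 22 of the 22 markers above background. In between it was 98.7 and 101 at day 3, 62.4 and 62.5 at day 5, 97.7 and 112 at day 7 and 136 and 323 at day 10, all with lacZ. Both day 10 arrays thus lay above both day 0 arrays, and they differed from each other by a larger ratio than the 2 day 14 arrays. In bulk RNA, more cells of a type and more RNA per cell cannot be told apart, and the same holds for fewer cells and less RNA. Day 14 MGT arrays summed to 392 and 439.6.

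Endothelial markers fell. Of 19 measured genes (20 listed), 14 were lower and 1 higher, with a median of -2.30, and the summed level went from 88.1 and 88.2 to 34.3 and 36.6. Robo4, a guidance receptor of endothelium, read 2.59 and 2.46 at day 0 and -1.49 and -1.79 at day 14, a difference of -4.17 (SE 0.40, adjusted p = 6.65e-07). Cdh5, VE-cadherin of endothelial junctions, fell by 2.77, Cldn5, a tight junction claudin, by 3.50, Emcn, endomucin, by 3.22, Egfl7 by 2.95, and Pecam1 (CD31) by 1.64. The gene that rose was Kdr, the VEGF receptor 2, by 1.43 (0.90 without the second day 14 array), while Vwf, von Willebrand factor, read -0.77 and -1.0 at day 0 and -1.0 and -0.61 at day 14 (adjusted p = 0.902). The list thus held 1 receptor that rose among genes that mostly fell.

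Cardiomyocyte markers, present in the day 0 preparation, fell. Of 23 measured genes (24 listed), 17 were lower and 4 higher (median -2.10), and 21 to 22 were above background on the day 0 arrays against 12 to 15 on the day 14 arrays. The summed level was 33.1 and 36.6 at day 0, 73.9 and 77.3 at day 3 and 27.2 and 27.3 at day 14. Myh6, alpha myosin heavy chain, read 2.26 and 2.20 at day 0 and -3.04 and -3.49 at day 14, a difference of -5.49 (SE 0.14, adjusted p = 2.2e-12), and a second probe was above background on only 1 of the 4 arrays. Actc1, cardiac alpha actin, read 2.89 and 2.62 at day 0 and -2.41 and -2.61 at day 14, and Myl3, a ventricular myosin light chain, read 1.43 and 1.33 at day 0 and -3.89 and -3.53 at day 14. Both genes stood above the 75th percentile at day 0 and below it at day 14. Csrp3, muscle LIM protein, was at least 9.17-fold lower. The 4 genes that rose were Tnnt2, cardiac troponin T, which read 2.06 and 1.91 at day 0 and 3.62 and 3.78 at day 14, and Casq2, Myl4 and Cox6a2, by 1.72, 1.12, 0.94 and 0.71. In MGT cultures at day 14, on another slide, Myh6 was higher than with lacZ by 10.45 (adjusted p = 1.91e-14) and Actc1 by 10.77 (adjusted p = 4.33e-15).

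Of the 14 epicardial and mesothelial markers, 9 rose and 5 fell. The risers included Gpm6a by 4.64, Upk3b by 3.78, Muc16 by 2.39, Bnc1 by 2.38 and Msln by 1.68, a set of membrane and surface genes of the mesothelium with the transcription factor basonuclin 1. The keratins of simple epithelia went the other way: Krt19 fell by 3.17, Krt18 fell by 2.51 and Krt8 fell by 2.36. The retinoic acid enzyme Aldh1a2 fell by 2.01, and the summed level of the list went from 62.6 and 66.3 to 48.3 and 49.1, downward despite the larger number of risers. Among 10 pericyte markers, 5 rose and 1 fell: Ndufa4l2, Rgs5, Notch3 and Pdgfrb rose by 4.91, 1.63, 1.46 and 1.36, and Cspg4 (NG2) went from 3.72 to -0.48. Without the second day 14 array, 2 pericyte genes were called lower. The summed pericyte level was 115 and 116 at day 0 and 90.7 and 140.3 at day 14, so the day 14 arrays lay on both sides of day 0.

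Lymphocyte, glial and adipocyte markers were summed at 7.13 and 7.90, 2.22 and 2.25 and 11.7 and 11.9 on the day 0 arrays and at 8.70 and 17.9, 6.39 and 6.73 and 4.13 and 5.25 on the day 14 arrays. Of 10 measured lymphocyte genes (11 listed), 4 were called higher and 4 lower (1 and 3 with the 4 arrays fitted alone). The T cell receptor chains Cd3d and Cd3g, at background at day 14, were at least 3.0-fold and 1.65-fold lower, and Lck, a T cell kinase, fell by 1.81. Among the genes called higher, Cd79b rose by 2.43 and was above background on all 4 arrays. Of 9 measured glial genes (10 listed), 2 rose, S100b by 3.45 and Mbp by 1.65, and 4 fell, among them Ngfr by 1.47. Of 5 measured adipocyte genes (10 listed), 1 was called higher and 2 lower. The one above background on all 4 arrays that passed the test was Fabp4, a fatty acid carrier also found in endothelium and macrophages, which fell by 1.36. Fabp4 read 3.53 and 3.55 at day 0 and 2.36 and 1.99 at day 14 and made up most of the summed adipocyte level on each of these arrays. The part of these cell types in the changes of the other lists was not tested.

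**Figure D2:**
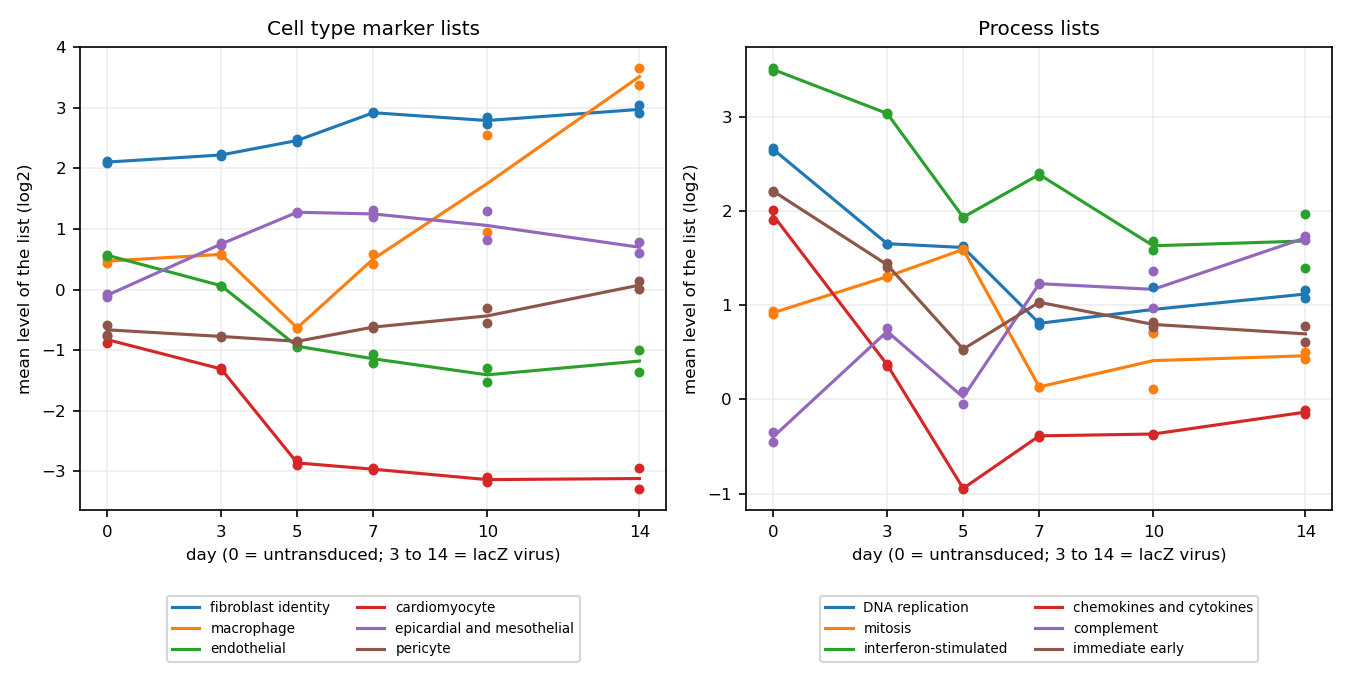
Mean level of each list (log2, relative to the array's 75th percentile) in untransduced cells at day 0 and lacZ cultures at days 3, 5, 7, 10 and 14; each point is 1 array and the line joins the means of the 2 arrays. The macrophage list rises from 0.47 to 3.51 mostly after day 5, endothelial and cardiomyocyte lists fall by day 5, and the chemokine, replication and interferon lists end lower than they began; days lie on different slides except days 3 with 5, 7 with 10, and 0 with 14.

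The chemokine and cytokine list, which holds Cxcl1, Cxcl2, Cxcl5, Il1b and Tslp, mostly fell. Of 41 measured genes (42 listed), 27 fell and 12 rose, with a median of -1.96. Cxcl3, a further neutrophil attractant, read 4.73 and 4.62 at day 0 and -4.56 and -6.25 at day 14, a fitted difference of -10.08 (SE 0.45, adjusted p = 3.52e-10) that exceeds that of Cxcl5 in size, but the gene was above background on only 1 of the 2 day 14 arrays. The falls took in Ccl5, a T cell and monocyte attractant, which read 5.40 and 5.17 at day 0 and 0.94 and 0.81 at day 14, and Cxcl10, an interferon-induced chemokine, which read 5.97 and 6.01 at day 0 and 2.86 and 2.24 at day 14. They also took in Ptgs2 (cyclooxygenase 2) with a fall of 3.39, Il11 of 3.01, Il6 of 2.0 and Tnf of 1.96. The monocyte attractants Ccl7 and Ccl2 fell by 2.52 and 1.66 and still lay well above the 75th percentile on the day 14 arrays, Ccl7 at 5.40 and 5.37 and Ccl2 at 6.80 and 6.95. Csf3, which encodes G-CSF, at background at day 14, was at least 32.6-fold lower. The risers formed a smaller set: Cxcl14 read -3.75 and -4.10 at day 0 and 1.85 and 1.87 at day 14, a difference of 5.79 (SE 0.21, adjusted p = 4.89e-11). Cx3cl1, fractalkine, the ligand of the Cx3cr1 receptor, read -0.15 and -0.19 at day 0 and 4.12 and 3.72 at day 14 and rose by 4.09, and Ccl12, Il33 and Ccl8 by 3.76, 3.08 and 2.15. Of the ligands of Csf1r, Il34 rose by 1.07 and Csf1 fell by 1.57.

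Immediate early genes, which respond to serum and stress quickly, were mostly lower at day 14. Of 24 measured genes (26 listed), 18 fell and 4 rose (median -1.70); with the 4 arrays fitted alone the numbers were 17 and 1. Fosl1 read 3.02 and 2.97 at day 0 and -2.47 and -2.40 at day 14, Egr2 read 2.90 and 2.80 at day 0 and -0.12 and 0.037 at day 14, and Myc read 3.38 and 3.17 at day 0 and 0.77 and 0.61 at day 14. These 3 transcription factors fell by 5.43, 2.89 and 2.59, with no overlap between the groups, as for 78.5% of all genes. Egr1 fell by 2.01, Fos by 1.68, Junb by 1.91, Nr4a1 by 1.61 and Atf3 by 1.94. Jun read 3.35 and 3.58 at day 0 and 3.35 and 3.18 at day 14 and did not pass the test (adjusted p = 0.119), and Klf2, a factor induced by flow and by statins, rose by 0.68.

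Interferon-stimulated genes fell in nearly every case. Type I interferon acts through a complex of transcription factors that binds the interferon-stimulated response element, and the genes it switches on restrict viruses. Of 40 genes, 39 fell (median -1.78), where 33.6% of all genes fell. RefSeq promoters (GRCm38.p6, 250 bases before to 50 after the start) were found for 31 of the genes, 38 promoters in all, and were searched on both strands for GAAA, any 2 bases and GAAA again, the letters of that element. A match was present in 20 of the 38 promoters (52.6%), against 3.44% of all 32851 promoters and 3.13% of those of the genes tested. The following stretches, from 8 genes that fell, are shown because they hold the shared letters of the list, with the match in capitals, each 5′ to 3′ on the gene's strand, a match on the other strand being printed as its reverse complement:
Ifit1: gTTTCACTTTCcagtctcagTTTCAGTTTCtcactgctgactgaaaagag
Ifit3: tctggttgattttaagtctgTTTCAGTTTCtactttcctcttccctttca
Gbp3: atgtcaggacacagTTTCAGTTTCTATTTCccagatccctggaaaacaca
Gbp7: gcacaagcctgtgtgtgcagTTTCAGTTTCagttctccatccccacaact
Isg15: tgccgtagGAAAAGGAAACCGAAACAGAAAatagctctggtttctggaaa
Bst2: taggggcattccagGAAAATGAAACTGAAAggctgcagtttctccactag
Oas3: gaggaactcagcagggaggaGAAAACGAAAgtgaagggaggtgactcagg
Rsad2: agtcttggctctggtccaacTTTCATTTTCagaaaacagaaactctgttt
The stretches lie at Ifit1 chr19:34640784-34640833 (+), Ifit3 chr19:34583387-34583436 (+), Gbp3 chr3:142559985-142560034 (+), Gbp7 chr3:142530263-142530312 (+), Isg15 chr4:156200855-156200904 (-), Bst2 chr8:71537567-71537616 (-), Oas3 chr5:120777705-120777754 (-) and Rsad2 chr12:26456543-26456592 (-). In Ifit1 there are 2 separate matches, and in Isg15, Bst2 and Gbp3 overlapping ones. The 19 genes with a match fell by a median of 1.65 and the 12 without by a median of 1.95. Oas3 was above background on 1 of the 2 day 14 arrays. A match describes letters and was not tested as a binding site.

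Oasl1, a regulator of the interferon response, read 5.39 and 5.31 at day 0 and 1.41 and 0.69 at day 14, a difference of -4.30 (SE 0.25, adjusted p = 4.76e-09). Rsad2, viperin, read 4.03 and 3.79 at day 0 and 0.73 and -0.40 at day 14, a difference of -3.74 (SE 0.36, adjusted p = 7.48e-07), and Cmpk2, its neighbour kinase, fell by 3.41. In these genes the second day 14 array lay below the first, and the same holds for Mx2 (3.43 and 3.30 at day 0 and 0.69 and -0.0044 at day 14), Irf7 (2.78 and 2.99 at day 0 and 0.41 and -0.24 at day 14) and Ifit3 (5.79 and 5.87 at day 0 and 3.89 and 2.97 at day 14). Without that array the median of the list was -1.48 and 37 genes fell. Isg15, a ubiquitin-like modifier, read 7.57 and 7.60 at day 0 and 6.43 and 5.82 at day 14 and stayed among bright probes despite a fall of 1.46. Genes of MHC class I and of peptide processing for it fell too: of 15, 14 were lower (9 with the 4 arrays fitted alone), with a median of -0.69. The peptide transporter Tap1 fell by 2.28, the immunoproteasome subunits Psmb8 and Psmb10 by 1.55 and 1.26, and the transactivator Nlrc5 by 1.47. The heavy chains H2-K1 and H2-D1, which near-identical genes may share probes with, fell by 0.39 and 0.57, and B2m, the common light chain, rose by 0.32 (0.18 without the second day 14 array).

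Complement genes rose. Of 24 measured genes (25 listed), 18 were higher and 2 lower, with a median of 1.68 (1 lower without the second day 0 array), and C1qa, C1qb and C1qc are also counted in the macrophage list. Cfi, the protease that cleaves C3b, read -2.04 and -2.11 at day 0 and 3.80 and 3.69 at day 14, a difference of 5.82 (SE 0.072, adjusted p = 9.16e-15). Both day 14 arrays thus lay above both day 0 arrays, and the groups were apart in either direction for 78.5% of all genes. The initiating proteases C1s1 and C1ra rose by 3.52 and 1.77, the central components C3 and C4b by 2.14 and 2.11, and properdin (Cfp) by 3.25. Cfb, factor B, the protease of the alternative pathway, read 3.64 and 3.52 at day 0 and 0.13 and -0.66 at day 14 and fell by 3.85.

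Genes of DNA replication fell. Replication genes are switched on by E2F factors in late G1, whereas genes of G2 and mitosis carry a cell cycle homology region, bound by complexes that repress them in resting cells. Of 31 replication genes, 29 fell, with a median of -1.65, and E2f1 and Tk1 did not pass. Prim1, the primase subunit, read 3.49 and 3.41 at day 0 and 1.07 and 1.03 at day 14, a difference of -2.40 (SE 0.12, adjusted p = 1.33e-09). Mcm4, a subunit of the replicative helicase, read 4.82 and 4.77 at day 0 and 2.90 and 2.50 at day 14, and the other 5 subunits, Mcm2, Mcm3, Mcm5, Mcm6 and Mcm7, fell by 1.63 to 2.07. Cdc6, which loads the helicase, fell by 2.32, Chaf1b, a histone chaperone, by 2.20, and Pcna, the sliding clamp, by 1.02. A second Cdc6 probe, above background on all 4 arrays, differed by -1.06. Ccne2, cyclin E2, at background at day 14, was at least 3.63-fold lower. The letters TTTCGCGC or TTTGGCGC of an E2F site, a search added after the values were seen, occurred on either strand in 8 of 28 promoters of the list (28.6%), against 0.813% of all promoters and 1.26% of those of the genes tested. Of the 8 genes with a match, 4 are shown, with the match in capitals:
Mcm5: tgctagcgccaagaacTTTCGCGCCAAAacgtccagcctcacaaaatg
Mcm6: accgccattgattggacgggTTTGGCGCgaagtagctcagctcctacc
Pola1: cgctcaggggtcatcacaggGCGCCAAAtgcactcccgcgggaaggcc
Uhrf1: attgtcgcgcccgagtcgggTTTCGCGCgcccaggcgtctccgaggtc
They lie at Mcm5 chr8:75109340-75109387 (+), Mcm6 chr1:128359725-128359772 (-), Pola1 chrX:93632266-93632313 (-) and Uhrf1 chr17:56304108-56304155 (+), and in Mcm5 the 2 forms of the motif overlap. The 8 genes with a match fell by a median of 1.65 and the 17 without by a median of 1.44.

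Of 30 mitosis genes, 19 fell and 3 rose, with a median of -0.51 (15 and 1 with the 4 arrays fitted alone). Foxm1, the transcription factor of G2 genes, read 0.68 and 0.61 at day 0 and -0.59 and -0.63 at day 14, a difference of -1.25 (SE 0.15, adjusted p = 7.84e-06). Prc1, of the spindle midzone, fell by 0.97, Top2a, which untangles DNA, by 0.95, Ccna2, cyclin A2, by 0.87, and Cdk1 by 0.73. Mki67, the antigen Ki-67, read 3.90 and 3.71 at day 0 and 3.61 and 3.65 at day 14 (adjusted p = 0.462), and Ccnb1, Plk1 and Aurka did not pass either, with differences of -0.20, -0.29 and -0.20. Ccnb2, cyclin B2, rose by 0.73. The letters TTTGAA or TTCGAA of the cell cycle homology region occurred on either strand in 18 of 25 promoters of this list (72.0%), 5 of 28 replication promoters (17.9%) and 19.2% of all promoters (14.8% for the genes tested). These letters can share GAA with the interferon element. Matches of 5 genes are shown, 3 that fell, Mki67, which did not pass, and Ccnb2, which rose:
Cdk1: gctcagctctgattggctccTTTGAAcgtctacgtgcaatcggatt
Top2a: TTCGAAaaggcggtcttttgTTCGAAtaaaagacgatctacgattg
Prc1: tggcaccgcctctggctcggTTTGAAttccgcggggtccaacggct
Mki67: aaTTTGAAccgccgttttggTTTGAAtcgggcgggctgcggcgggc
Ccnb2: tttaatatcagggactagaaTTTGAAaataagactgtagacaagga
They lie at Cdk1 chr10:69352958-69353003 (-), Top2a chr11:99024284-99024329 (-), Prc1 chr7:80294426-80294471 (+), Mki67 chr7:135716452-135716497 (-) and Ccnb2 chr9:70421696-70421741 (-). The 17 genes with a match differed by a median of -0.47 and the 7 without by -0.37.

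Inhibitors of cyclin-dependent kinases and targets of p53 rose. Of 26 genes, 20 were higher and 3 lower, with a median of 0.56. Cdkn2b, the inhibitor p15Ink4b encoded beside Cdkn2a, read -0.47 and -0.60 at day 0 and 4.59 and 4.89 at day 14, a difference of 5.27 (SE 0.12, adjusted p = 1.02e-12). Sesn1, a stress sensor that restrains mTOR, read -0.090 and -0.24 at day 0 and 2.95 and 3.07 at day 14, a difference of 3.17 (SE 0.14, adjusted p = 3.85e-10). Rbl2, the pocket protein p130 of resting cells, read -2.89 and -2.82 at day 0 and -0.38 and -0.42 at day 14, a difference of 2.45 (SE 0.11, adjusted p = 3.73e-10). Each of these 3 had tight pairs, and no overlap between the groups, as had 78.5% of all genes. Cdkn1a (p21), Cdkn1b (p27) and Cdkn2c (p18) rose by smaller amounts, 0.61, 0.72 and 0.80. Cdkn1c (p57) read 0.77 and 0.86 at day 0 and -1.22 and -2.05 at day 14 and fell by 2.45, and Trp53 itself fell by 1.23. The p53 targets Mdm2, Bax and Bbc3 did not pass, with differences of -0.17, 0.17 and 0.029.

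**Figure D3:**
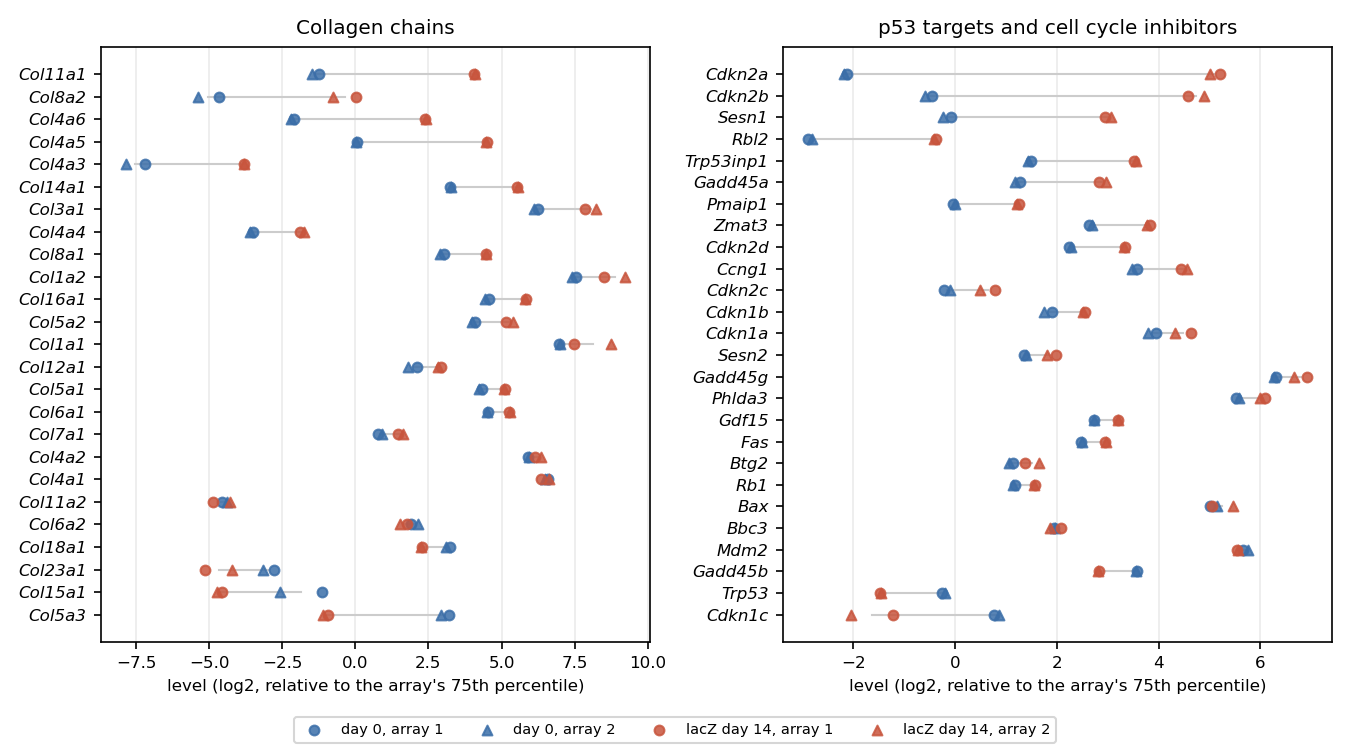
Levels on each of the 4 arrays (log2, relative to the array's 75th percentile) of the collagen chain list and of the list of p53 targets and cell cycle inhibitors, day 0 in blue and lacZ day 14 in red, ordered by the difference; grey lines join the group means. Collagen differences run from -4.08 (Col5a3) to 5.45 (Col11a1) and those of the inhibitors from -2.45 (Cdkn1c) to 7.28 (Cdkn2a).

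Collagen chains rose more often than they fell: of 25 measured genes (26 listed), 18 were higher and 5 lower, with a median of 1.13. The fibrillar chains Col1a2 and Col1a1 read 7.53 and 7.42 at day 0 and 8.51 and 9.23 at day 14, and 6.97 and 7.0 at day 0 and 7.49 and 8.75 at day 14. They rose by 1.39 and 1.13, and Col1a1 by 0.50 without the second day 14 array and by 1.76 without the first. Col3a1 rose by 1.87, and Col5a1 and Col5a2, which regulate fibril diameter, by 0.81 and 1.24. Col11a1, a fibril chain of cartilage and of activated fibroblasts, read -1.25 and -1.48 at day 0 and 4.07 and 4.09 at day 14, a difference of 5.45 (SE 0.086, adjusted p = 4.55e-14). The basement membrane chains moved unequally: Col4a5 read 0.042 and 0.021 at day 0 and 4.51 and 4.48 at day 14 and Col4a6 read -2.09 and -2.19 at day 0 and 2.37 and 2.43 at day 14, rises of 4.46 and 4.54, whereas Col4a1 read 6.59 and 6.49 at day 0 and 6.34 and 6.63 at day 14 (adjusted p = 0.626). A second Col4a6 probe, also above background on all 4 arrays, differed by only 1.23. Col8a2, a short-chain collagen, rose by 4.66 and Col14a1, a fibril-associated one, by 2.30. Col5a3 read 3.19 and 2.94 at day 0 and -0.93 and -1.10 at day 14 and fell by 4.08, and Col18a1, the precursor of endostatin, fell by 0.89.

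Enzymes that modify and crosslink collagen were higher in 17 of 20 cases and lower in 2 (median 0.91). Loxl2, a lysyl oxidase-like crosslinking enzyme, read 4.25 and 4.17 at day 0 and 7.36 and 7.37 at day 14, a difference of 3.15 (SE 0.12, adjusted p = 9.91e-11), with the 2 day 14 arrays nearly equal. Its other kept probes, each above background on all 4 arrays, rose by less, by 2.38, 2.23 and 1.01. P4ha1, prolyl hydroxylase, read 0.46 and 0.45 at day 0 and 3.46 and 3.03 at day 14, and Plod2, lysyl hydroxylase 2, read 2.29 and 2.28 at day 0 and 4.35 and 4.25 at day 14. The other crosslinking enzymes also rose, Loxl3 by 2.63, Lox by 1.62, Loxl4 by 1.56 and Loxl1 by 0.61. Adamts2, which trims procollagen, rose by 1.85, while Adamts14 and Pcolce2 fell by 0.98 and 0.88.

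The list of matrix glycoproteins and proteoglycans had changes of both signs: 27 of 48 measured genes (51 listed) rose and 16 fell (median 0.66). Of its elastic fibre genes, Fbln5 read 2.42 and 2.38 at day 0 and 5.94 and 5.81 at day 14, Mfap4 read 3.26 and 3.32 at day 0 and 7.01 and 7.07 at day 14, and Eln, elastin, read 0.11 and 0.37 at day 0 and 2.76 and 3.35 at day 14. These gave differences of 3.48, 3.76 and 2.82, and Fbn1, fibrillin 1, rose by 1.38. Rises were also measured for 6 small leucine-rich proteoglycans, Omd by 4.11, Prelp by 3.53, Fmod by 2.99, Ogn by 2.36, Bgn by 2.10 and Aspn by 2.0, while decorin, of the same family, did not pass. Among the falls, Tnc, tenascin C of injured matrix, read 2.45 and 2.58 at day 0 and -1.03 and -0.71 at day 14, and Vcan, versican, read 3.27 and 3.22 at day 0 and 0.57 and 0.37 at day 14, with falls of 3.38 and 2.77. Sparcl1 fell by 2.63 and Postn, periostin, by 0.98, while Fn1, fibronectin, rose by 1.07. Of the CCN family, Ccn5 and Ccn4 rose (Ccn4 by 1.53), and Ccn3 fell by 1.92 and Ccn1 fell by 1.59.

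Of 31 measured matrix proteases and inhibitors (32 listed), 17 rose and 9 fell (median 0.90). Timp3, the matrix-bound tissue inhibitor, read 4.99 and 4.86 at day 0 and 8.02 and 8.43 at day 14, a difference of 3.30 (SE 0.13, adjusted p = 1.06e-10), and Timp2 rose by 1.58, whereas Timp1 fell by 0.89. The aggrecan-degrading Adamts5 and Adamts15 rose by 3.59 and 3.89, and Adamtsl1, at background at day 0, was at least 20.5-fold higher. A second Adamts5 probe, also above background on all 4 arrays, differed by 2.25. Mmp2 (gelatinase A) rose by 1.95, Mmp11 by 3.21 and Mmp23 by 2.55. Mmp13, collagenase 3, read 1.52 and 1.34 at day 0 and -4.54 and -4.38 at day 14 and was above background on 1 of the 2 day 14 arrays, and Mmp8, the neutrophil collagenase, fell by 2.13. Proteases and inhibitors of the same family thus differed in direction.

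Contractile genes of smooth muscle and myofibroblasts were divided: 12 of 23 measured genes (24 listed) rose and 7 fell (10 and 3 with the 4 arrays fitted alone), with a median of 0.35. Acta2, smooth muscle alpha actin, the classic myofibroblast marker, read 7.88 and 7.96 at day 0 and 7.90 and 8.19 at day 14 (adjusted p = 0.349), and Tagln, SM22 alpha, read 7.77 and 7.90 at day 0 and 8.01 and 8.45 at day 14 (adjusted p = 0.0538). Both were bright on all 4 arrays. Cnn1, calponin 1, read 1.01 and 0.91 at day 0 and 4.57 and 4.49 at day 14, a difference of 3.57 (SE 0.090, adjusted p = 2.31e-12). Itga11, the collagen-binding integrin chain of myofibroblasts, read 0.82 and 0.79 at day 0 and 5.04 and 5.01 at day 14, a difference of 4.22 (SE 0.077, adjusted p = 1.78e-13), and Itgb5 rose by 3.48. Myh11, smooth muscle myosin, at background at day 0, was at least 21.8-fold higher, and its activator Myocd rose by 2.08. Srf, serum response factor, read 3.55 and 3.69 at day 0 and 1.97 and 1.80 at day 14 and fell by 1.74, and Smtn fell by 1.25 and Cnn2 fell by 0.78.

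Within the fibroblast identity list, 16 of 28 genes rose and 6 fell (median 0.88). Pdgfrl, a PDGF receptor-like protein, read 0.069 and -0.18 at day 0 and 5.15 and 5.05 at day 14, a difference of 5.16 (SE 0.091, adjusted p = 1.29e-13). Cthrc1, a secreted marker of matrix-producing fibroblasts, rose by 3.40, Fbln1 by 3.83 and S100a4 (FSP1, also made by leukocytes) by 3.14. Tcf21, the transcription factor of resident cardiac fibroblasts, read 1.24 and 1.29 at day 0 and 3.20 and 3.25 at day 14 and rose by 1.96. Thy1, the surface antigen used to sort cardiac fibroblasts, read 6.13 and 6.11 at day 0 and 4.39 and 4.59 at day 14 and fell by 1.63, Dpt, dermatopontin, fell by 1.58, and Pdgfra, the PDGF receptor alpha, by 0.36. Meox1, a transcription factor of activated fibroblasts, and Fap, fibroblast activation protein, fell by 1.27 and 1.11.

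**Figure D4:**
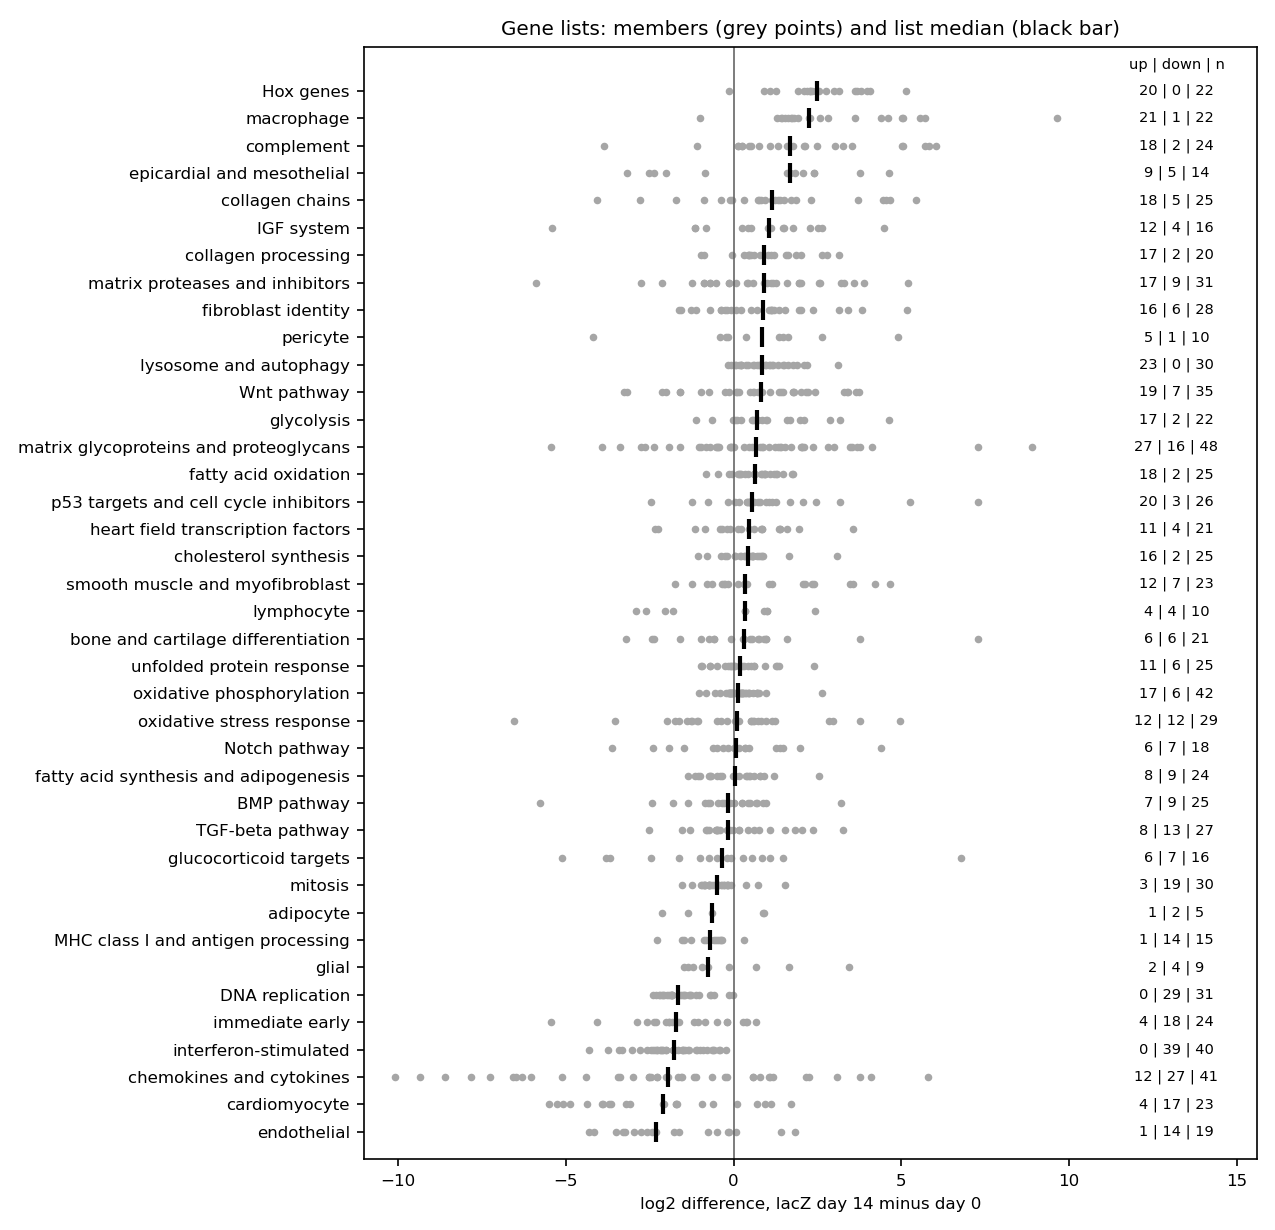
Difference between lacZ day 14 and day 0 (log2) for each measured member (grey point) of 39 gene lists, with the list median as a black bar; the figures at the right give how many members were called higher (up), lower (down) and measured (n). The median is -2.30 for the endothelial and 2.26 for the macrophage list; members at background on one side, as in the Hox list, are drawn at their fitted difference, and most lists hold members on both sides of 0.

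Most glycolysis genes were higher at day 14. Of 22, 17 rose and 2 fell (median 0.71). Aldoc, aldolase C, read -2.14 and -2.33 at day 0 and 2.30 and 2.50 at day 14, a difference of 4.63 (SE 0.19, adjusted p = 1.64e-10), Pdk1, which shuts pyruvate dehydrogenase, rose by 3.18, and Slc16a3, the lactate exporter, by 2.09. Hk2, hexokinase 2, fell by 1.13, and the glucose transporter Slc2a1 read 4.04 and 4.02 at day 0 and 3.98 and 4.08 at day 14 (adjusted p = 0.97). In fatty acid oxidation, 18 of 25 genes were higher and 2 lower (median 0.65), and Pdk4, Ech1 and Acadm rose by 1.75, 1.29 and 0.95 while Acadl fell by 0.82. The uncoupling proteins Ucp3 and Ucp2 rose by 1.76 and 1.47. Of the subunits of the respiratory chain, 17 of 42 rose and 6 fell (7 and 3 with the 4 arrays fitted alone), with a median of 0.13. The largest change there was Cox7a1, the muscle form of a complex IV subunit, which read -1.78 and -1.94 at day 0 and 0.64 and 0.91 at day 14. Cycs, cytochrome c, fell by 1.02, and a second probe above background on all 4 arrays differed by -0.55.

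Cholesterol synthesis genes were higher in 16 of 25 cases and lower in 2; the fit of the 4 arrays alone called 8 higher, and without the first day 14 array 5 were lower. Tm7sf2, a sterol reductase, read -1.79 and -1.79 at day 0 and 1.48 and 1.10 at day 14, and Sqle, squalene epoxidase, and Hmgcs1 rose by 0.76 and 0.69, while Cyp51, lanosterol demethylase, fell by 1.07 (-0.59 without the second day 14 array). Fatty acid synthesis and adipogenesis genes had 8 rises and 9 falls among 24 measured genes (27 listed) (5 and 6 with the 4 arrays alone), in which Scd2 rose by 2.54 and Scd1 rose by 1.21, while Dgat2 fell by 1.15 and Fasn by 1.0 (-0.64 without the second day 14 array). The desaturases and the synthase thus differed in sign. Over all genes, 35.2% were higher and 33.6% lower.

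Lysosomal and autophagy genes rose in 23 of 30 cases and the other 7 did not pass (median 0.86). Ctsd, cathepsin D, read 5.51 and 5.47 at day 0 and 7.32 and 7.86 at day 14, and Map1lc3b, the autophagosome protein LC3B, read 3.83 and 3.81 at day 0 and 5.68 and 5.75 at day 14. The rises were 2.10 and 1.89, and Ctss, a cathepsin of macrophages and other antigen-presenting cells, rose by 1.48. Macrophages are rich in lysosomes, and their summed marker level rose over the same interval from 93.5 and 104 to 523 and 726; its part in this list was not tested.

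Of 29 antioxidant genes, 12 rose and 12 fell. The secreted enzymes Sod3 and Gpx3 read 0.85 and 0.57 at day 0 and 5.76 and 5.61 at day 14, and 1.32 and 1.42 at day 0 and 5.09 and 5.21 at day 14, rises of 4.97 and 3.78. The glutathione transferases differed in direction. Gstm2 and Gsta3 rose by 2.95 and 2.83, whereas Gsta1, at background at day 14, was at least 48.7-fold lower. Gsta2 fell by 3.55 but was above background on only 1 of the 2 day 14 arrays, which read -0.81 and -6.19. Among the falls were Txnrd1, thioredoxin reductase, by 1.75, Gclc by 1.39, Hmox1 by 1.26, Gclm by 1.24, Nqo1 by 1.10 and Srxn1 by 1.07. Sod2, the mitochondrial dismutase, fell by 1.62. The median of the list was 0.11, -0.0026 without the second day 14 array and 0.062 without the second day 0 array. In the unfolded protein response list, 11 of 25 rose and 6 fell (8 and 3 with the 4 arrays alone), with rises of Trib3 by 2.39, Atf5 by 1.35, Ddit3 by 1.30 and Chac1 by 1.26, and falls of Creld2 and Manf of 0.97 and 0.71. Hspa5 (BiP) and Atf4 did not pass, at -0.11 and 0.024.

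In the list of the IGF system, 12 of 16 genes rose and 4 fell (median 1.07). Igf1, the ligand that macrophages and stromal cells make, read 1.61 and 1.39 at day 0 and 2.91 and 3.12 at day 14, and Igf2, the fetal ligand, at background at day 14, was at least 15.0-fold lower. Binding proteins rose, Igfbp3 by 2.65, Igfbp2 by 2.51, Igfbp5 by 2.28, Igfbp4 by 1.78, Igfbp6 by 1.47 and Igfbp7 by 1.11. Pappa, the protease that frees IGF from Igfbp4, read -1.07 and -1.13 at day 0 and 3.28 and 3.46 at day 14, a difference of 4.47 (SE 0.099, adjusted p = 7.53e-13). The receptor Igf1r rose by 0.53, and the adaptors Irs1 and Irs2 fell by 0.82 and 1.15.

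In the Wnt list, 19 of 35 measured genes (38 listed) rose and 7 fell (median 0.83). The agonists Rspo1 and Rspo3, R-spondins that prolong Wnt receptor signalling, read -1.56 and -1.46 at day 0 and 2.02 and 1.71 at day 14, and -1.30 and -1.32 at day 0 and 2.38 and 1.82 at day 14. The secreted antagonists Sfrp4, Dkk3, Frzb and Sfrp1 rose by 3.73, 2.43, 2.0 and 1.81, whereas Sfrp2 fell by 1.61. Of the ligands, Wnt6 rose by 2.21, Wnt9a rose by 1.76 and Wnt5a rose by 1.37, whereas Wnt5b fell by 1.60. Axin2, a general target gene, was above background on 2 of 2 day 0 arrays and 1 of 2 day 14 arrays and did not pass (adjusted p = 0.061).

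TGF-beta drives matrix production in fibroblasts, and its list had 8 rises and 13 falls among 27 (7 and 8 with the 4 arrays alone), and a median of -0.17. Of the ligands, Tgfb3 rose by 1.09, Tgfb1 fell by 0.47, and Tgfb2 read 3.47 and 3.39 at day 0 and 3.38 and 3.43 at day 14 (adjusted p = 0.799). The activin subunits moved in opposite directions: Inhba read 6.13 and 6.03 at day 0 and 3.62 and 3.50 at day 14, and Inhbb read -0.54 and -0.54 at day 0 and 2.85 and 2.58 at day 14. Tgfbr2, the type II receptor, rose by 1.84, as did the activin traps Fst and Fstl3, by 2.03 and 1.52. Of the latency proteins, Ltbp3 rose by 2.37, and Ltbp1 fell by 1.54 and Ltbp2 fell by 0.80. The target Smad7, an inhibitor of the pathway, fell by 0.40. In the BMP list, 7 of 25 measured genes (26 listed) rose and 9 fell (5 and 2 with the 4 arrays alone), where 35.2% of all genes rose and 33.6% fell. Gdf6 was up by 3.21 and Bmp2 at -1.35, and the targets Id1 and Id3 were at 0.25 and 0.49, the first not past the test.

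Of 18 measured Notch genes (19 listed), 6 rose and 7 fell; 5 and 4 did so with the 4 arrays fitted alone. Heyl, a target gene of mural cells, read -4.16 and -3.86 at day 0 and 0.43 and 0.34 at day 14, a difference of 4.40 (SE 0.14, adjusted p = 1.86e-11), and the receptor Notch3 rose by 1.46. Dlk1, a non-canonical ligand of immature mesenchyme, read 3.60 and 3.48 at day 0 and 0.18 and -0.35 at day 14 and fell by 3.62, and Notch1 fell by 1.91 (-1.21 without the first day 14 array). Glucocorticoid targets had 6 rises and 7 falls among 16. Over all genes, 35.2% rose and 33.6% fell, the shares against which the counts of these lists are to be read. Hsd11b1 read -1.60 and -1.66 at day 0 and 5.02 and 5.30 at day 14, a difference of 6.79 (SE 0.097, adjusted p = 2.59e-14), and Tsc22d3 (GILZ) rose by 1.47, while Fkbp5, Sgk1 and Per1 fell by 1.64, 2.46 and 1.0. In the bone and cartilage list, 6 of 21 measured genes (24 listed) rose and 6 fell. Mgp, matrix Gla protein, an inhibitor of calcification, read 3.96 and 4.01 at day 0 and 7.71 and 7.81 at day 14, and Sox9 rose by 0.96, while Alpl, alkaline phosphatase, fell by 0.59. The bone regulators Runx2 and Sp7 did not pass, and Sp7 was at background on all 4 arrays.

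Hox genes, which record position along the body axis and are kept by fibroblasts in culture, rose in 20 of 22 measured genes (27 listed), with a median of 2.48. They were dim: 8 were above background on all 4 arrays and 6 on both day 14 arrays and neither day 0 array, so the median includes differences not measured on both sides. Hoxb4 read -1.69 and -1.65 at day 0 and 0.74 and 0.47 at day 14, a difference of 2.27 (SE 0.10, adjusted p = 4.41e-10). Hoxa3 rose by 3.13, and Hoxc6, at background at day 0, was at least 18.7-fold higher. Hoxd4 and Hoxb6 were at least 6.17-fold and 5.68-fold higher. The 2 genes that did not pass were Hoxa4 and Hoxa9, and with the 4 arrays fitted alone 17 of the list passed. Transcription factors of the heart fields and epicardium had 11 rises and 4 falls among 21 (7 and 3 with the 4 arrays alone). Wt1 rose by 1.59, Tbx3 fell by 2.33 and Tbx18 by 0.86, and Gata4, one of the reprogramming factors, read 2.30 and 2.16 at day 0 and 2.44 and 2.44 at day 14 in these cultures without MGT, a difference of 0.21 (adjusted p = 0.0432) that did not pass without the second day 0 array or either day 14 array (adjusted p up to 0.25).

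The day 3 lacZ arrays divide the change into a step by day 3 and a step after it, and the steps share those arrays with opposite sign, so the values are given side by side and no relation between the steps is drawn. By day 3, 57.6% of genes were called (28.3% higher, 29.3% lower), and between day 3 and day 14, 56.6% (29.2% and 27.5%). Ccn5 rose by 7.39 by day 3 and by 1.51 after, and Hsd11b1 by 6.0 and 0.80. Cx3cr1 differed by 0.94 by day 3 and by 8.69 after, and Fcrls by -0.061 (adjusted p = 0.936) and 7.05. Cdkn2a rose by 2.23 and then by 5.04. Il1b differed by -6.80 by day 3 and by 0.50 after (adjusted p = 0.214), while Myh6 differed by -0.059 by day 3 (adjusted p = 0.734) and by -5.44 after. Tnnt2 rose by 3.49 by day 3 and fell by 1.77 after.

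The lists had courses of their own. Chemokine and replication genes had medians of -1.21 and -1.08 by day 3 and -0.38 and -0.53 after. Mitosis genes had 16 of 30 higher and 3 lower at day 3 (median 0.38), and 26 fell after (median -0.86). Of the contractile genes, 15 rose and 2 fell by day 3, and 5 rose and 15 fell after, with medians of 0.85 and -0.34. Of the 40 interferon-stimulated genes, 3 rose and 18 fell by day 3, and 0 rose and 36 fell after, with medians of -0.32 and -1.33. All 22 macrophage genes rose after day 3 (median 2.76), whereas 8 had risen by day 3 and 6 had fallen. The mean level of the chemokine list was lowest at day 5, at -0.94, against 1.95 at day 0 and -0.13 at day 14. For the replication list the mean of the 2 arrays was lowest at day 7, at 0.81. Its day 7 arrays read 0.79 and 0.83 and its day 10 arrays 0.71 and 1.20, so these days were not resolved. The fibroblast identity list rose from 2.10 to 2.92 at day 7 and read 2.97 at day 14.

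**Figure D5:**
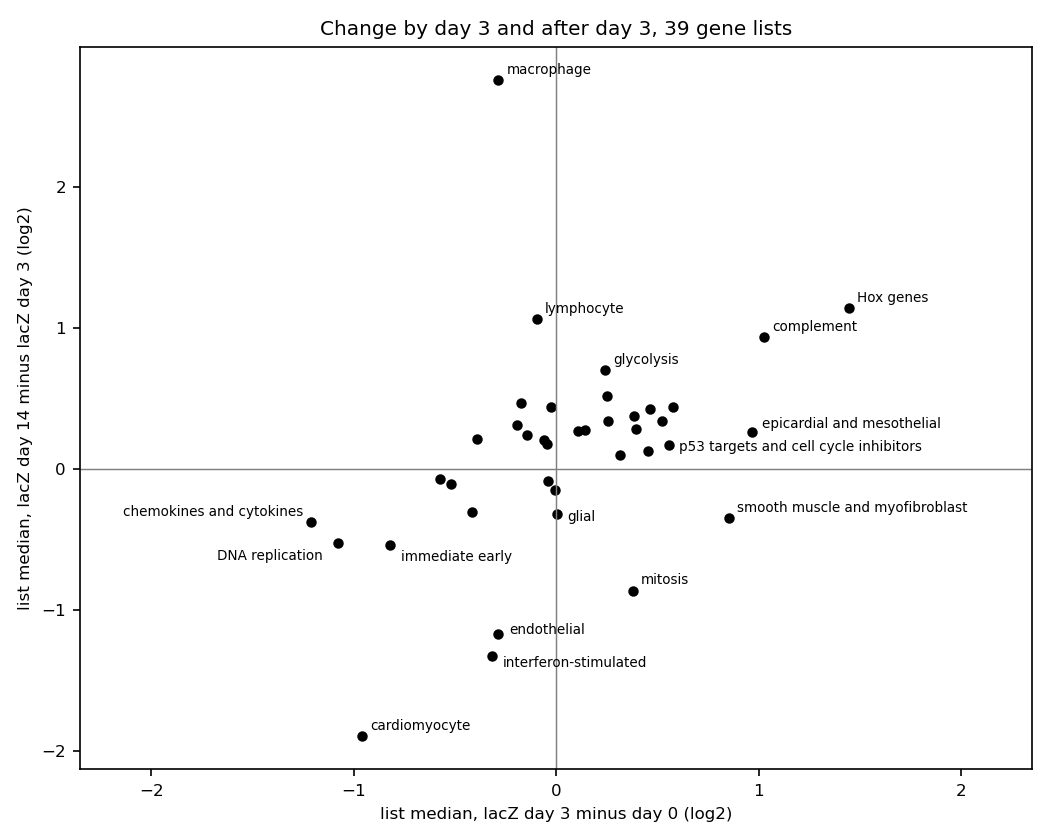
List medians of the difference between lacZ day 3 and day 0 (horizontal axis, log2) and between lacZ day 14 and lacZ day 3 (vertical axis, log2); each point is 1 of 39 gene lists, the outlying ones named. The macrophage list lies at -0.29 and 2.76, mitosis at 0.38 and -0.86, and cardiomyocyte markers at -0.96 and -1.89; both axes use the day 3 arrays.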

How the data were processed

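Per the file headers, the deposited scanner files hold Agilent Feature Extraction 10.7.3.1 intensities of 22 one-colour arrays, background-subtracted and detrended within each array but not normalized between arrays, on a probe design placed on mm9. The authors also deposited a table of 34378 rows of intensities with column medians of 198 to 206. Its scale, centring and making are not given in the sources used here, so it served as an alternative (18030 genes matched). The submitters' processing notes name limma.

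Outlier and control spots were left out, and each array's 75th percentile was subtracted from the log2 of the deposited processed intensity. Probes called well above background by both arrays of 1 group or more were kept (38800 of 55681), and the kept probe with the highest mean stood for its gene. Names came from RefSeq, by accession for 26056 probes, by symbol for 3200 and by synonym for 930, and 25495 probes stayed unnamed. All 11 groups of 2 arrays entered 1 limma 3.58.1 model in R 4.3.3, with p-values adjusted by the Benjamini-Hochberg method over 18056 genes and a threshold of 0.05. The number of arrays limits the precision. The scripts were tested on simulated data.

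The comparison and the gene lists were chosen with earlier results of these data known. The genes named are the 12 largest rises and falls that passed the test above background on all 4 arrays with no overlap between the groups, the 5 largest bounds in each direction and up to 4 members per list by size, leaving out predicted models and olfactory receptors from the first 2 sets. Other list members were named for their known roles after their values were seen. Some genes that meet the rule are not reported here. A bound sets the measured group's mean against, per array, the dim probe's signal or, if higher, that of the dimmest probe still above background. The alternatives covered background correction, normalization, the filter, the choice of probe, array weights, the arrays fitted, the deposited table, a replicate block and leaving out each array.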

Additional observations from a re-analysis of the deposited data

How the results depend on the processing

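The number of genes called between day 0 and lacZ day 14 (12409) stayed within 1.5 times under the alternatives run, from 8381 with the 4 arrays fitted alone to 12837, and from 11252 to 12837 with 1 array left out. With 1 array left out, the comparison of lacZ day 3 with day 0 gave 8669 to 9125 genes, that of lacZ day 14 with day 3 gave 8261 to 10888, and that of MGT with lacZ at day 14 gave 6626 to 9508. The call counts of the last 2 comparisons, 10228 and 8542, moved to 6495 and 4723 with array weights and to 5438 and 2702 with only the arrays compared, a fit of fewer samples. A replicate block gave 12398, 10409, 10195 and 8516 genes in the 4 comparisons and moved no count of calls by over 1.5 times. The 2 replicate numbers were not taken as pairing the arrays, since the day 0 and day 14 replicate differences correlated at 0.071, with -0.23 to 0.37 over all pairs of groups.

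List medians larger than their spread between replicates changed sign in 8 cases. The oxidative stress median (0.11) was -0.012 with quantile normalization and ran from -0.0026 to 0.14 with 1 array left out, the negative value without the second day 14 lacZ array, and the BMP median (-0.16) was 0.040 with normexp and 0.021 over probes above background on all 4 arrays. The Notch median (0.083) was -0.12 with the mean of kept probes and -0.017 without the second day 14 lacZ array. The glial median (-0.77) was 0.084 with normexp, and the adipocyte median (-0.64) was 0.56 with no filter on dim probes. The causes were not tested. Medians within that spread changed sign too: fatty acid synthesis, at 0.028, ranged from -0.10 to 0.30 and was below 0 under 4 alternatives, and lymphocyte markers, at 0.35, were at -0.018 in the deposited table. Of the other alternative list medians, 434 moved by less than the spread between replicates and 143 by more. Of the alternative values for genes chosen by the naming rule, 2501 kept their side of the threshold, 19 lost the call and 6 gained it, and no called value turned. Hand1, which did not pass (-2.26), was at 0.16 without the first day 14 lacZ array and at -4.68 without the second. With no filter the median over all genes was 0.27. The slide as a random block could not be fitted, since each group lay on 1 slide. The 2 arrays a group and the dimmer second day 14 array limit the precision, and probes near background give bounds only.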
